A study of Mus musculus with 20 samples.

Results

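The RNA of 10 chemokine genes (Ccl2, Ccl7, Ccl3, Ccl4, Ccl5, Cxcl1, Cxcl2, Cxcl9, Cxcl10 and Cxcl16) was followed in bone marrow endothelial cells of irradiated mice. The 10 were taken by name, as inflammatory and interferon-induced chemokines, from 18193 genes with a probe set of their own, and all 10 were measured. Each gene was read by its brightest probe set. The cells, labelled as VE-cadherin+ endothelial cells of the bone marrow, came from adult C57/Bl6 mice of 8 to 10 weeks. A first group of 5 arrays came from mice that received no radiation. The other 3 groups, of 5 arrays each, came from mice given a dose of 5 Gy to the whole body (total body irradiation) and taken 6 hours, 24 hours or 14 days later. The labels name no transgene or other allele and no other agent. They number biological replicates from 1 to 5 in each group without saying whether each came from 1 mouse or a pool, so the p-values measure the spread between these samples only.

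Chemokines are small secreted proteins that guide leukocytes through G protein-coupled receptors. CCL2 and CCL7 draw monocytes through CCR2, CCL3 and CCL5 can act through CCR1, and CXCL1 and CXCL2 draw neutrophils through CXCR2. CXCL9 and CXCL10 are induced by interferons and draw activated T and NK cells through CXCR3, and CXCL16 is a membrane-bound ligand of CXCR6. In the marrow, endothelial cells line the sinusoids through which leukocytes leave for the blood, and CCL2 on CCR2 and CXCL2 on CXCR2 are known to promote the exit of monocytes and neutrophils.

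Signals are the deposited linear intensities of each array, and changes are differences of log2(signal + 1) with limma's standard error and an adjusted p over all genes. A change was called at an adjusted p under 0.05. The signal that probe sets of absent bacterial genes reached ran from 17.5 to 51.5 over the 20 arrays and is used here as background. Median array signals had group means of 177 in non-irradiated mice, 149 at 6 hours, 135 at 24 hours and 94.5 at day 14. The arrays had been scaled to a common trimmed mean, so a second scale, with each array centred on its median, was also used. This centred scale is given where it changes a call of the chemokines or the direction of a list whose calls are counted. It moved the median change of all genes against non-irradiated mice from -0.02 to 0.23 at 6 hours, from -0.07 to 0.31 at 24 hours and from -0.18 to 0.72 at day 14. The share of calls that were higher moved with it from 47.0% to 68.6%, from 53.2% to 81.3% and from 42.2% to 94.7%. Of all 18193 genes, 3531 were called higher and 1617 lower at 6 hours with centred arrays. The counts were 4950 and 1139 at 24 hours, and 8210 and 461 at day 14. Counts of gene lists on the centred scale are to be read beside these. Arrays of the 6-hour group were less alike (correlation across genes 0.893 to 0.902) than those of the non-irradiated group (0.935 to 0.943). Cdkn1a, the p53 target that marks irradiated cells, had a signal of 943 ± 66.8 (SD, n = 5) in non-irradiated mice, 5968 ± 416 at 6 hours, 5017 ± 456 at 24 hours and 1141 ± 66 at day 14. Cdh5, which encodes VE-cadherin, was above background on all 20 arrays, and so was Ptprc, the common leukocyte antigen CD45. Markers of blood cells were thus present in the cells the labels call endothelial.

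At 6 hours 8 of the 10 chemokines rose and 0 fell, when 12.9% of all genes rose and 14.5% fell (27.4% were called). Ccl2, Ccl7, Cxcl1 and Ccl4 rose more than 4-fold, and Cxcl10, Cxcl9, Ccl3 and Cxcl16 rose between 1.96-fold and 3.3-fold. At 24 hours 5 were higher than in non-irradiated mice (Ccl2, Ccl7, Cxcl2, Cxcl9 and Cxcl10) and 1, Ccl3, was lower, against 15.7% and 13.8% of all genes (29.5% called). At day 14, 4 were higher (Ccl2, Ccl7, Cxcl9 and Cxcl10) and 3 were lower (Ccl3, Ccl4 and Cxcl2), against 9.47% and 13.0% of all genes (22.4% called). The median change of the 10 was 1.44 at 6 hours, 0.80 at 24 hours and 0.11 at day 14, beside -0.02, -0.07 and -0.18 over all genes. The 3 comparisons share the non-irradiated arrays.

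The 5 irradiated arrays lay wholly on 1 side of the 5 non-irradiated arrays for 6 chemokines at 6 hours, 5 at 24 hours and 6 at day 14. Over all genes this held for 15.6%, 28.0% and 23.0%. Ccl2, Ccl3, Cxcl9 and Cxcl10 were the chemokines whose arrays did not overlap the non-irradiated ones at any of the 3 times. Over the 4 groups together 9 of the 10 differed in an F test, as did 55.1% of all genes, and Ccl5 did not (adjusted p = 0.177).

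**Figure D1:**
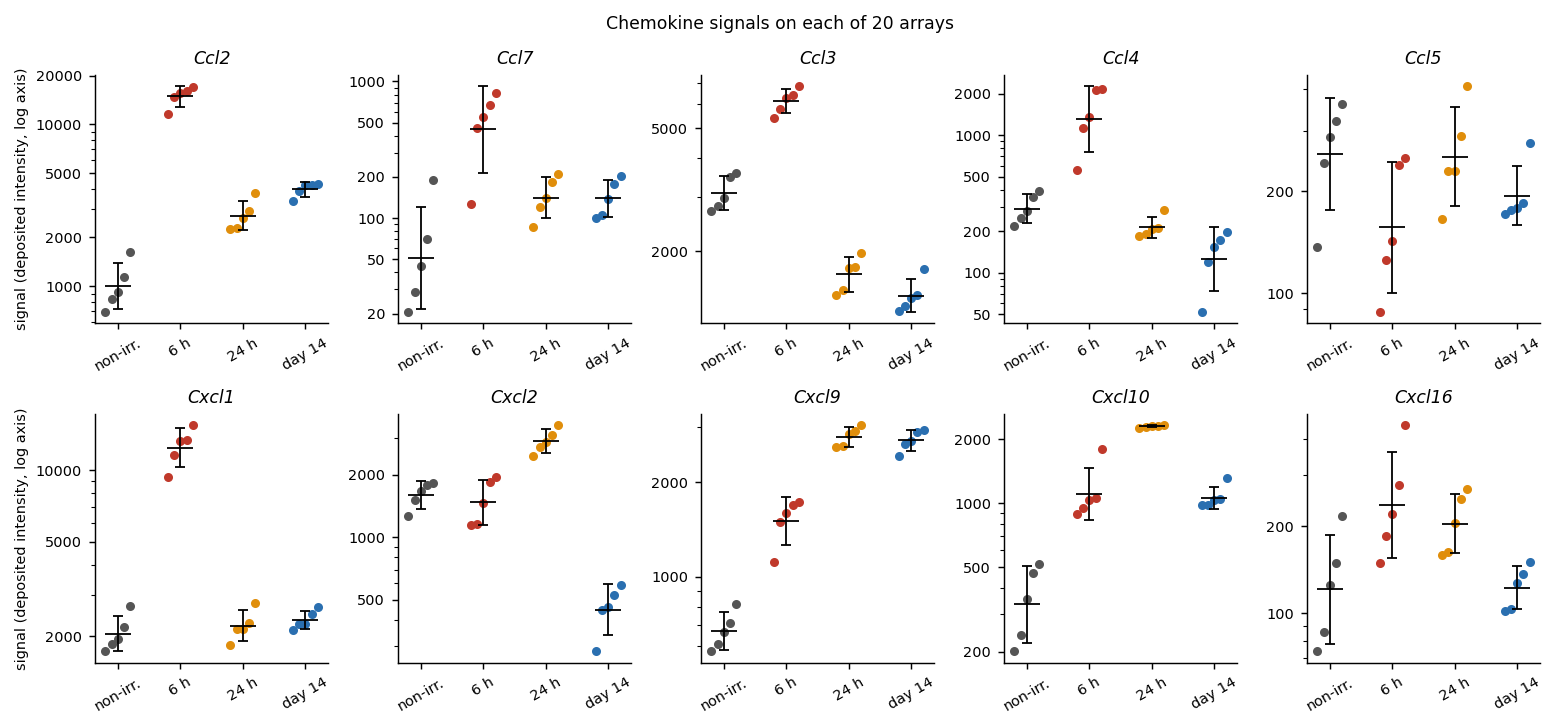
Signal (deposited intensity, logarithmic axis) of the 10 chemokine genes on each array, in 4 groups of 5 arrays. Points are arrays, sorted by value, and bars are the mean ± SD of log2 signals. Ccl2, Ccl3, Ccl4 and Cxcl1 are highest at 6 hours and Cxcl10 at 24 hours, with no overlap with any other group, while the 4 groups of Ccl5 overlap.

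Ccl2, the main monocyte attractant of the CCR2 system, had the largest change of the 10 at 6 hours. Its probe set (1420380_at) read 835, 692, 1142, 1632 and 921 on the 5 non-irradiated arrays and 14763, 17023, 15700, 11630 and 15998 at 6 hours. It read 2622, 2913, 3751, 2264 and 2297 at 24 hours and 4188, 4289, 3884, 4241 and 3341 at day 14. Every irradiated array was thus above every non-irradiated array, and the 6-hour arrays were above all others. The change against non-irradiated mice was 3.90 ± 0.17 (SE, adjusted p = 6.68e-15) at 6 hours, a 14.9-fold rise. It was 1.44 ± 0.17 (SE, adjusted p = 2.32e-07) at 24 hours and 1.99 ± 0.17 (SE, adjusted p = 5.39e-09) at day 14. From 24 hours to day 14 Ccl2 rose by 0.55 ± 0.17 (SE, adjusted p = 0.013), with overlapping arrays, and this step lost its call under quantile normalization (0.43 (adjusted p = 0.0656)). The order of its levels was 6 hours, day 14, 24 hours and non-irradiated as deposited, and day 14 stayed above 24 hours in every setting run, from 0.43 to 2.00.

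Ccl7, which lies next to Ccl2 on chromosome 11 and encodes a second CCR2 ligand, was measured less well. Its probe set (1421228_at) read 20.5, 28.7, 189, 69.8 and 44.7 on the non-irradiated arrays, of which 3 of 5 were above background. It read 547, 822, 672, 459 and 128 at 6 hours, 139.8, 120.1, 184, 86.3 and 209 at 24 hours and 105, 204, 99.8, 138 and 178 at day 14. The highest non-irradiated array (replicate 3) overlapped all 3 irradiated groups, and the lowest 6-hour array (replicate 5) lay within the range of the later groups. Ccl7 rose by 3.10 ± 0.5 (SE, adjusted p = 2.97e-05) at 6 hours. At 24 hours the change was 1.44 ± 0.5 (SE, adjusted p = 0.0321) and at day 14 1.42 ± 0.5 (SE, adjusted p = 0.0435). Leaving out 1 array ended the 24-hour call in 6 cases (non-irradiated replicates 1, 2 and 5 and 24-hour replicates 1, 3 and 5), with values from 1.12 to 1.91 over all single arrays left out and adjusted p up to 0.108. The day 14 call was lost without any 1 of 10 arrays (non-irradiated replicates 1, 2 and 5, 24-hour replicates 1 and 2, and each day 14 array), with values from 1.10 to 1.89 and adjusted p up to 0.13. It was lost too with 16 in place of 1 added to the signals (1.15, limma adjusted p = 0.0641). The same held with limma's intensity trend off (adjusted p = 0.0636), a replicate block (0.0503), or the Gapdh (0.0578) or pan-leukocyte (0.184) covariate. The 24-hour call was lost with the Gapdh covariate (adjusted p = 0.0643). The 6-hour rise kept its call without each single array. Day 14 and 24 hours differed by -0.02 ± 0.5 (SE, adjusted p = 0.985).

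The changes of Ccl2 and Ccl7 against non-irradiated mice differed by 0.80 ± 0.66 (SE) at 6 hours. An exact two-sided permutation of this within-array ratio gave p = 0.317, and p = 0.992 at 24 hours and 0.325 at day 14. With 5 arrays against 5 such a test can give no p below 0.00794, and 12 of these ratio tests were made (4 pairs at 3 times), over which the p-values below are adjusted. The ratio tests were chosen after the data had been seen, which the adjustment does not cover. For this pair the spread of Ccl7 leaves differences of that size undecided.

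Ccl3 and Ccl4, neighbours on chromosome 11 that encode MIP-1alpha and MIP-1beta, rose at 6 hours and, as deposited, had their lowest mean signals at day 14. Ccl3 (1419561_at) read 2973, 2802, 3466, 2709 and 3575 in non-irradiated mice and 6844, 6387, 6272, 5752 and 5409 at 6 hours. It read 1767, 1449.5, 1785, 1501 and 1982 at 24 hours and 1288, 1442, 1334, 1759 and 1412 at day 14. The 6-hour arrays were all above and the later arrays all below the non-irradiated ones. Ccl3 rose by 0.99 ± 0.12 (SE, adjusted p = 2.62e-07) at 6 hours, a 1.98-fold change, and then stood below the non-irradiated level, by -0.87 ± 0.12 (SE, adjusted p = 1.37e-06) at 24 hours and -1.10 ± 0.12 (SE, adjusted p = 1.61e-07) at day 14. The lower 2 groups differed by -0.23 ± 0.12 (SE, adjusted p = 0.129), by -0.29 ± 0.11 (adjusted p = 0.0489) under quantile normalization and by 0.29 ± 0.14 (adjusted p = 0.11) on the centred scale, so their order depends on the scaling.

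Ccl4 (1421578_at) read 279, 217, 395, 353 and 250.3 in non-irradiated mice and 562, 1119, 2121, 1357 and 2158 at 6 hours. It read 191, 212, 208, 284 and 185 at 24 hours and 51.6, 119, 198, 153 and 174 at day 14. The 6-hour arrays were above all others and varied among themselves from 562 to 2158, while the 24-hour arrays overlapped the non-irradiated ones. Ccl4 rose by 2.17 ± 0.35 (SE, adjusted p = 2.45e-05) at 6 hours. That call was lost with the mean of pan-leukocyte genes as a covariate (3.13, limma adjusted p = 0.068). The difference of Ccl4 from non-irradiated mice was -0.45 ± 0.35 (SE, adjusted p = 0.369) at 24 hours, which was not called, and -1.20 ± 0.35 (SE, adjusted p = 0.0149) at day 14. Without day 14 replicate 1, the lowest array, the day 14 difference was -0.88 (adjusted p = 0.0577), so that call rests on this array, and it was lost under quantile normalization too (-0.49 ± 0.34, adjusted p = 0.359).

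On the centred scale the day 14 calls of both genes were lost, at -0.20 ± 0.14, adjusted p = 0.249 for Ccl3 and -0.30 ± 0.35, adjusted p = 0.527 for Ccl4. The lower Ccl3 signal at 24 hours was kept (-0.49 ± 0.14, adjusted p = 0.00659), as were both rises at 6 hours (1.24 ± 0.14, adjusted p = 1.16e-07 for Ccl3 and 2.42 ± 0.35, adjusted p = 5.59e-06 for Ccl4). Within arrays, Ccl4 changed by more than Ccl3 at 6 hours, with a difference of -1.18 ± 0.44 for Ccl3 minus Ccl4 (exact two-sided permutation p = 0.0397, adjusted p = 0.0952), which does not pass once adjusted.

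Cxcl1 and Cxcl2, both ligands of the neutrophil receptor CXCR2, lie side by side on chromosome 5 and had different time courses. Their upstream sequences are shown because the pair shares a candidate site. The 120 bases before each start, from RefSeq (GRCm38.p6, plus strand), lie at chr5:90891125-90891244 for Cxcl1 and chr5:90903779-90903898 for Cxcl2. Capitals mark matches on either strand to the NF-kB motif, searched as GGGANNNNCC, GGGNNTTTCC and GGGNNNTTCC, which overlap each other.
Cxcl1: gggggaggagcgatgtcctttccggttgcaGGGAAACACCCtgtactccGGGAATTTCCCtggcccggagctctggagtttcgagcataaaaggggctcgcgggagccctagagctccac
Cxcl2: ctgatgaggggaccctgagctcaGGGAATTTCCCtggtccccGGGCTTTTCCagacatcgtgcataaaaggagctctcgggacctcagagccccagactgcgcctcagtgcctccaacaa
Both hold the run GGGAATTTCCCTGG of 14 bases, from position -71 in Cxcl1 and from -97 in Cxcl2, and each has a second match close by. A match to the motif occurs in 19.6% of the 32851 upstream windows of 250 bases in the table, so it describes the letters of the window only. RefSeq windows were at hand for 5 of the 10 genes (Ccl3, Cxcl1, Cxcl2, Cxcl9 and Cxcl10), of which Ccl3 held none of the motifs searched.

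Cxcl1 (1441855_x_at) read 1850.1, 1941, 2184, 1734 and 2680.1 in non-irradiated mice and 13194, 11584, 13320, 9379 and 15438 at 6 hours. It read 2769, 2146, 2154, 1844 and 2285 at 24 hours and 2265, 2473, 2263, 2652 and 2127 at day 14. All 6-hour arrays were above all others, and the other 3 groups overlapped. Cxcl1 rose by 2.60 ± 0.13 (SE, adjusted p = 7.51e-14) at 6 hours, a 6.04-fold change. Its difference was 0.11 ± 0.13 (SE, adjusted p = 0.573) at 24 hours and 0.19 ± 0.13 (SE, adjusted p = 0.302) at day 14. The 2 other probe sets of Cxcl1 gave 3.07 ± 0.14 and 2.49 ± 0.12 (SE of the difference between group means) at 6 hours. On the centred scale Cxcl1 was called higher also at 24 hours (0.50 ± 0.16, adjusted p = 0.0165) and day 14 (1.09 ± 0.16, adjusted p = 2.33e-06), and day 14 was above 24 hours there (0.60 ± 0.16, adjusted p = 0.00361).

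Cxcl2 (1449984_at) read 1262, 1669, 1518, 1793 and 1828 in non-irradiated mice and 1463, 1154, 1949, 1145 and 1847 at 6 hours. It read 3459, 2456, 3111, 2886 and 2710.1 at 24 hours and 461, 283, 526, 445 and 592 at day 14. The 24-hour arrays were above all others, the day 14 arrays were below all others, and the first 2 groups overlapped. The 6-hour difference was -0.12 ± 0.18 (SE, adjusted p = 0.707). Cxcl2 rose by 0.86 ± 0.18 (SE, adjusted p = 0.000683) at 24 hours, a 1.82-fold change, and was lower at day 14, at -1.83 ± 0.18 (SE, adjusted p = 8.31e-08), or 3.56-fold. Both calls were kept on the centred scale (1.24 ± 0.2, adjusted p = 1.39e-05 at 24 hours and -0.93 ± 0.2, adjusted p = 0.000268 at day 14). The 24-hour call was lost with the Gapdh 3' minus 5' difference as a covariate (0.88, limma adjusted p = 0.0504). The day 14 call was lost with the mean of pan-leukocyte genes as a covariate (-1.30, adjusted p = 0.177).

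The within-array ratio of Cxcl1 to Cxcl2 changed at all 3 times. Against non-irradiated mice its log2 rose by 2.71 ± 0.15 at 6 hours, fell by 0.75 ± 0.15 at 24 hours and rose by 2.03 ± 0.25 at day 14. The exact two-sided permutation p was 0.00794 at each time, the smallest that 5 against 5 arrays can give, with an adjusted p of 0.0317. Because the test was chosen with the arrays of both genes already seen, this p adds little to the separation described above. With any 1 array left out the 3 values kept their signs and ran from 2.61 to 2.84, from -0.85 to -0.68 and from 1.84 to 2.16 (other probe sets and 16 in place of 1 included). Their adjusted p then rose to at most 0.0635, reached without non-irradiated replicate 2, 3, 4 or 5 and, at 24 hours, without 24-hour replicate 1, 2, 4 or 5. With 4 arrays against 5 the exact permutation test allows no smaller raw p than 0.0159. Multiplying an array by a factor leaves such a ratio as it is, but quantile normalization does not. Under it the 3 values were 2.57, -0.76 and 1.76, each with an adjusted p of 0.0238.

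**Figure D2:**
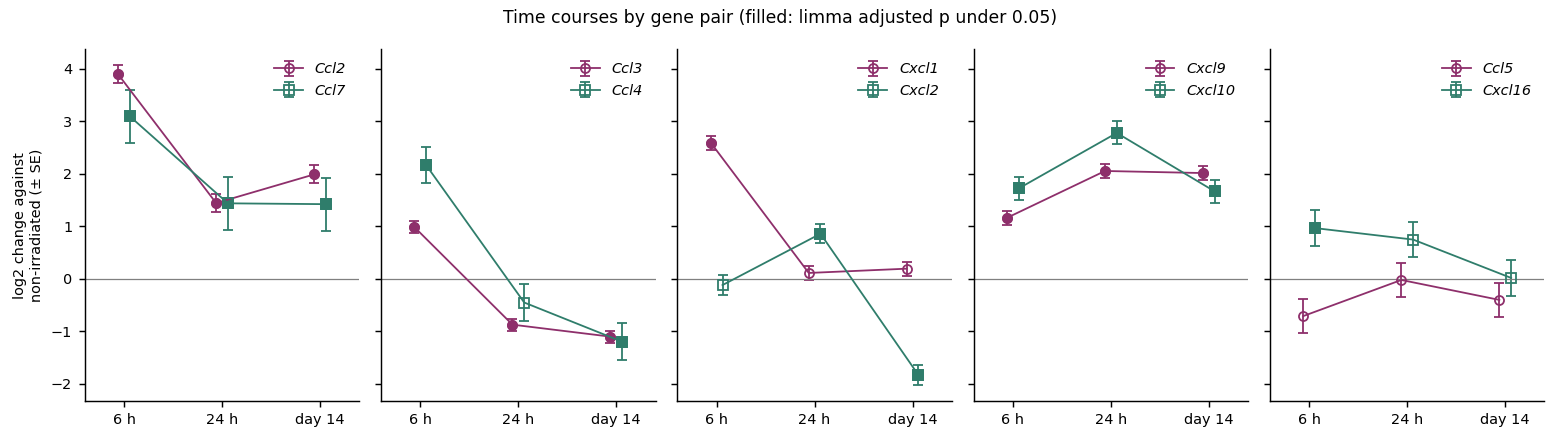
Log2 change against non-irradiated mice (± SE, n = 5 arrays a group) at 6 hours, 24 hours and day 14 for 5 pairs of chemokine genes. Filled points have a limma adjusted p under 0.05. Cxcl1 peaks at 6 hours at 2.60 while Cxcl2 reads -0.12 there and peaks at 24 hours at 0.86, and Cxcl9 and Cxcl10 stay above 1 at all 3 times.

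Cxcl9 and Cxcl10, ligands of CXCR3 that are classical interferon targets, lie close together on chromosome 5 and were higher at all 3 times. The sequences before their starts are shown because genes of the interferon and NF-kB pathways are read beside this pair further on: the last 150 bases for Cxcl9 at chr5:92328080-92328229 and 250 for Cxcl10 at chr5:92348890-92349139 (RefSeq, GRCm38.p6, both genes on the minus strand and written in the direction of transcription). Capitals mark the NF-kB motif as above, the interferon-stimulated response element (GAAANNGAAA) and the AP-1 motif (TGANTCA), each searched on both strands.
Cxcl9: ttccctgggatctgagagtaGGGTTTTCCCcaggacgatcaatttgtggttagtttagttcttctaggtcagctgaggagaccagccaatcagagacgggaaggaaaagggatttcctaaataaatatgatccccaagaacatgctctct
Cxcl10: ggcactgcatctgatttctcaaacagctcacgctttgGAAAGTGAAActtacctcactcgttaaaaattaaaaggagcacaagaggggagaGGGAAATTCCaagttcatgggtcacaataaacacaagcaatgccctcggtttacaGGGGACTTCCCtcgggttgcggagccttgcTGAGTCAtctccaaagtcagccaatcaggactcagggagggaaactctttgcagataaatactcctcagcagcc
Cxcl10 holds the interferon element at -213, NF-kB matches at -159 and at -104 (overlapping another from -103), and an AP-1 match at -74. Cxcl9 holds an NF-kB match at -130. The interferon element occurs in 2.98% of all windows of this length and the AP-1 motif in 6.75%. A STAT palindrome (TTCNNNGAA, in 7.02% of windows) was searched for too and its letters are in none of the 5 windows.

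Cxcl9 (1418652_at) read 610.0, 711, 819, 667 and 578 in non-irradiated mice and 1598, 1733, 1495, 1112 and 1688 at 6 hours. It read 2587, 2604, 3045, 2856 and 2924 at 24 hours and 2657, 2945, 2435, 2705 and 2899 at day 14. The 6-hour arrays were all above the non-irradiated ones and all below both later groups, which overlapped. Cxcl9 rose by 1.16 ± 0.13 (SE, adjusted p = 9.76e-08) at 6 hours, 2.06 ± 0.13 (SE, adjusted p = 3.13e-12) at 24 hours and 2.02 ± 0.13 (SE, adjusted p = 2.41e-11) at day 14, or 2.24-fold, 4.16-fold and 4.05-fold. The later pair differed by -0.04 ± 0.13 (SE, adjusted p = 0.843), a value that turned positive and was called on the centred scale (0.48 ± 0.14, adjusted p = 0.0102). A second probe set of Cxcl9 gave 0.74 ± 0.39, 1.30 ± 0.27 and 1.77 ± 0.23 at the 3 times.

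Cxcl10 (1418930_at) read 471, 517, 201, 239 and 355 in non-irradiated mice and 893, 945, 1056, 1803 and 1029 at 6 hours. It read 2313, 2315, 2321, 2290.4 and 2264 at 24 hours and 1043, 979, 983, 1029.8 and 1307 at day 14. The 24-hour arrays were above all others and spanned only 2264 to 2321, and the 6-hour and day 14 arrays overlapped each other above the non-irradiated ones. Cxcl10 rose by 1.72 ± 0.22 (SE, adjusted p = 8.26e-07) at 6 hours, 2.78 ± 0.22 (SE, adjusted p = 1.89e-10) at 24 hours and 1.67 ± 0.22 (SE, adjusted p = 4.52e-06) at day 14, or 3.3-fold, 6.87-fold and 3.17-fold. From 24 hours to day 14 it fell by 1.11 ± 0.22 (adjusted p = 0.000189). The day 14 and 6-hour levels differed by -0.06 ± 0.22 (SE, adjusted p = 0.843) as deposited and by 0.59 ± 0.2, adjusted p = 0.0183 on the centred scale, so their order depends on the scaling.

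At 24 hours Cxcl10 changed by more than Cxcl9 within arrays, with a difference of -0.72 ± 0.32 for Cxcl9 minus Cxcl10 (exact two-sided permutation p = 0.0159, adjusted p = 0.0476). This is just under the threshold and rose to an adjusted p of 0.0571 with 16 in place of 1 added to the signals, and to 0.0952 without any 1 of 8 arrays (non-irradiated or 24-hour replicates 2, 4 and 5, non-irradiated replicate 3 and 24-hour replicate 1). At 6 hours the difference was -0.56 ± 0.43 (exact permutation p = 0.278) and at day 14 0.35 ± 0.33 (exact permutation p = 0.302).

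Ccl5, or RANTES, which draws T cells and monocytes, had no called change. Its probe set (1418126_at) read 242, 361, 289, 321 and 137 in non-irradiated mice and 125, 249.99, 88.1, 239 and 143 at 6 hours. It read 229, 166, 291, 229 and 409 at 24 hours and 277, 176, 185, 179 and 172 at day 14. The 4 groups overlapped. The differences from non-irradiated mice were -0.71 ± 0.33 (SE, adjusted p = 0.119) at 6 hours, -0.02 ± 0.33 (SE, adjusted p = 0.972) at 24 hours and -0.40 ± 0.33 (SE, adjusted p = 0.406) at day 14. Without non-irradiated replicate 5, its lowest array there, the 6-hour difference was called lower, at -0.93 (adjusted p = 0.0388). The standard error of its changes, 0.33, was larger than that of Ccl2 (0.17) or Cxcl1 (0.13).

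Cxcl16, made as a membrane-bound protein and released by proteases of the ADAM family, was called higher at 6 hours only. Its probe set (1418718_at) read 126, 217, 73.7, 149.6 and 86.1 in non-irradiated mice and 221, 185, 447, 278 and 149 at 6 hours. It read 163, 248, 159, 268 and 205 at 24 hours and 103, 127, 102, 151 and 137 at day 14. The arrays of the 3 irradiated groups each overlapped the non-irradiated ones. The change was 0.97 ± 0.34 (SE, adjusted p = 0.0321) at 6 hours, 0.75 ± 0.34 (SE, adjusted p = 0.098) at 24 hours and 0.02 ± 0.34 (SE, adjusted p = 0.975) at day 14. The 6-hour call was lost without non-irradiated replicate 3 (0.79 (adjusted p = 0.101)) or 5 (0.85 (adjusted p = 0.0864)) and without 6-hour replicate 3 (0.74 (adjusted p = 0.105)) or 4 (0.91 (adjusted p = 0.06)). The 24-hour change was called on the centred scale (1.13 ± 0.33, adjusted p = 0.00819), under quantile normalization (1.15 ± 0.33, adjusted p = 0.00879) and without non-irradiated replicate 2 (0.96 (adjusted p = 0.038)), and the day 14 change was called on the centred scale (0.92 ± 0.33, adjusted p = 0.0227). A second probe set gave 1.41 ± 0.29, 1.03 ± 0.21 and 0.08 ± 0.15.

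The irradiated times were also compared with each other. From 6 to 24 hours 3 chemokines rose (Cxcl2, Cxcl9 and Cxcl10) and 5 fell (Ccl2, Ccl7, Ccl3, Ccl4 and Cxcl1), when 13.7% of all genes rose and 10.1% fell (23.8% were called). The falls were -2.62 ± 0.35 for Ccl4, -2.48 ± 0.13 for Cxcl1, -2.45 ± 0.17 for Ccl2, -1.86 ± 0.12 for Ccl3 and -1.66 ± 0.5 for Ccl7, with limma adjusted p from 6.07e-13 to 0.0175. The rises were 1.06 ± 0.22 for Cxcl10, 0.98 ± 0.18 for Cxcl2 and 0.89 ± 0.13 for Cxcl9, with adjusted p from 9.74e-06 to 0.000733. The arrays did not overlap for 7 of the 10, against 14.6% of all genes. The fall of Ccl7 was not called without 24-hour replicate 4 (-1.48 (adjusted p = 0.0511)). The falls of Ccl4 and Ccl7 lost their calls with either covariate, the Gapdh 3' minus 5' difference or the mean of pan-leukocyte genes. For Ccl4 the limma adjusted p was 0.0623 and 0.0555 there. The rises of Cxcl2 and Cxcl9 were lost with each covariate as well, and that of Cxcl10 with the Gapdh difference.

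From 24 hours to day 14, 1 chemokine rose (Ccl2) and 2 fell (Cxcl2 by 2.69 ± 0.18 and Cxcl10 by 1.11 ± 0.22), when 15.2% of all genes rose and 21.7% fell. That share of called members, 3 of 10, is close to the 36.9% of all genes called. The arrays did not overlap for 3 of the 10, against 36.4% of all genes. From 6 hours to day 14, 1 rose (Cxcl9, 0.85 ± 0.13 (SE, adjusted p = 5.62e-06)) and 7 fell, when 19.8% of all genes rose and 25.0% fell (44.9% were called). The arrays did not overlap for 6 of the 10, against 28.2% of all genes. The falls ran from -3.36 ± 0.35 for Ccl4 to -0.95 ± 0.34 for Cxcl16, the last of which was lost without 6-hour replicate 3 (-0.72 (adjusted p = 0.0796)), day 14 replicate 1 (-0.89 (adjusted p = 0.053)) or day 14 replicate 3 (-0.88 (adjusted p = 0.054)). The fall of Cxcl16 was lost under both other scalings as well, at -0.37 (adjusted p = 0.408) with quantile normalization and -0.30 (adjusted p = 0.492) with centred arrays. The fall of Ccl7, -1.67 as deposited, was also lost under both, at -1.17 (adjusted p = 0.0866) and -1.02 (adjusted p = 0.106). Ccl5 was called higher at day 14 than at 6 hours on the centred scale (0.96 ± 0.32, adjusted p = 0.0169), against 0.31 (adjusted p = 0.466) as deposited.

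**Figure D3:**
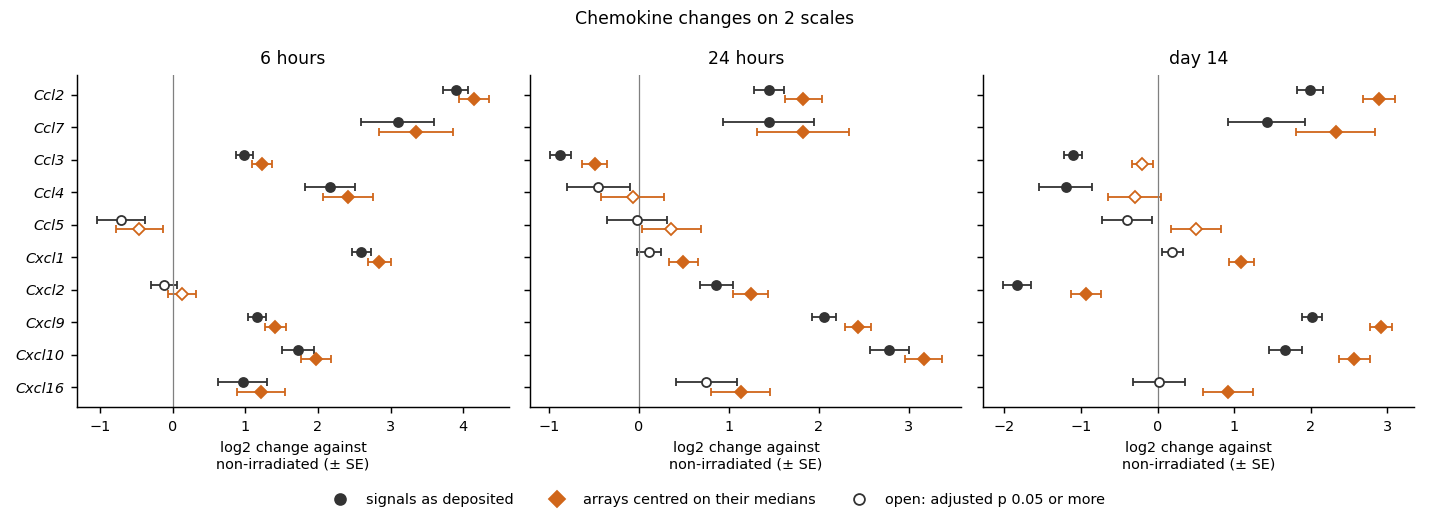
Log2 change (± SE) of the 10 chemokine genes against non-irradiated mice at 6 hours, 24 hours and day 14, with signals as deposited (circles) and with each array centred on its median (diamonds). Filled points have a limma adjusted p under 0.05. All points move to the right on the centred scale, most at day 14, where Ccl3 and Ccl4 lose their calls and Cxcl1 and Cxcl16 gain one.

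Other parts of the chemokine system were read from lists of genes. Their counts against non-irradiated mice are to be read beside the shares of all genes called. These were 12.9% higher and 14.5% lower at 6 hours, 15.7% and 13.8% at 24 hours, and 9.47% and 13.0% at day 14. The median change of all genes was -0.02, -0.07 and -0.18. Of 25 other chemokine ligands measured, 6 rose and 2 fell at 6 hours, 6 rose and 2 fell at 24 hours, and 1 rose and 6 fell at day 14. Their median change was 0.33, 0.41 and -0.21. With centred arrays 8 were higher and 1 lower, 8 and 0, and 10 and 1, with medians of 0.58, 0.79 and 0.68. Over all genes the medians on that scale were 0.23, 0.31 and 0.72. Under quantile normalization 3 were higher and 4 lower at day 14, with a median of 0.10 beside 0.19 over all genes. The day 14 direction of this list thus depends on the scaling, and its median lay near that of all genes on each scale. Cxcl13, a B cell attractant, rose by 1.99 ± 0.44 (SE, adjusted p = 0.000852) at 24 hours, from 286 ± 93.9 to 1106 ± 225. Ccl6 fell at 6 hours, by 2.43 ± 0.28 (adjusted p = 2.18e-07), and was -1.62 ± 0.28 (SE, adjusted p = 0.000178) at day 14. Cxcl5, another CXCR2 ligand, rose by 2.13 ± 0.52 (SE, adjusted p = 0.00264) at 6 hours with overlapping arrays. It was above background on 3 of 5 non-irradiated arrays and 4 of 5 at 6 hours, so this rise starts near the background. Cxcl3 and Ccl20 also passed the naming rule, but Cxcl3 was above background on 0 of 5 non-irradiated arrays and at most 2 of 5 in any group, and Ccl20 on 0 of the 20.

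Of 6 receptors of these ligands that were analysed, 0 were called higher in limma's fit at any of the 3 times, while 1 was lower at 6 hours, 3 at 24 hours and 3 at day 14, with median changes of -0.78, -0.43 and -1.05. Cxcr2, the neutrophil receptor of Cxcl1 and Cxcl2, was lower at 6 hours (-1.41 ± 0.23 (SE, adjusted p = 3.45e-05)) and day 14 (-1.22 ± 0.23 (SE, adjusted p = 0.000515)), and read 0.19 ± 0.23 (SE, adjusted p = 0.597) at 24 hours. Cxcr3, the receptor of Cxcl9 and Cxcl10, was lower at 24 hours (-1.07 ± 0.39 (SE, adjusted p = 0.0407)) and day 14 (-1.47 ± 0.39 (SE, adjusted p = 0.00853)), and Cxcr6, the receptor of Cxcl16, read -1.81 ± 0.62 (SE, adjusted p = 0.0271) and -2.05 ± 0.62 (SE, adjusted p = 0.0182) there, with 2 of 5 arrays above background. On the centred scale 1 receptor was called lower at 6 hours and 0 at the later times, in limma's fit.

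Atypical receptors, which bind chemokines without classical signalling and remove or carry them, moved differently. Ackr3 rose by 1.67 ± 0.16 (SE, adjusted p = 1.19e-08) at 6 hours and 0.77 ± 0.16 (SE, adjusted p = 0.000577) at 24 hours, and was -0.71 ± 0.16 (SE, adjusted p = 0.00264) at day 14. Ackr1, which carries inflammatory chemokines such as CCL2 across venular endothelium, rose from 637 ± 108 to 1271 ± 178 at 6 hours (1.00 ± 0.18, adjusted p = 7.63e-05) and was again higher at day 14 (0.78 ± 0.18 (SE, adjusted p = 0.00232)). Ackr4 was higher at 24 hours (0.40 ± 0.075 (SE, adjusted p = 0.000134)) and lower at day 14 (-0.27 ± 0.075 (SE, adjusted p = 0.0115)). Of the 5 atypical receptors 2 were higher at 6 hours, 2 at 24 hours and 1 at day 14, where 2 were lower. The median changes were 0.61, 0.40 and -0.12. On the centred scale 3 were higher and 0 lower at each time, while 8210 of all 18193 genes were higher at day 14.

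Of 21 signals, subunits and feedback genes of the NF-kB pathway, which drives many inflammatory chemokine genes, 12 rose and 1 fell at 6 hours. At 24 hours 3 rose and 2 fell, and at day 14, 2 rose and 6 fell. The median change of the list was 0.72, 0.12 and -0.31. The feedback inhibitor Nfkbia rose by 0.92 ± 0.078 (SE, adjusted p = 1.02e-09) at 6 hours, read -0.16 ± 0.078 (SE, adjusted p = 0.138) at 24 hours and was lower at day 14 (-0.64 ± 0.078 (SE, adjusted p = 1.58e-06)). Tnfaip3, or A20, a further inhibitor, rose by 0.97 ± 0.16 (SE, adjusted p = 2.42e-05) and was lower at 24 hours (-0.97 ± 0.16 (SE, adjusted p = 2.22e-05)) and day 14 (-1.30 ± 0.16 (SE, adjusted p = 1.36e-06)). The cytokine Il6 rose at 6 hours from 119 ± 55.9 to 709 ± 74.5 (2.65 ± 0.28, adjusted p = 4.94e-08), and Birc3, an inhibitor of apoptosis, by 1.45 ± 0.18 (SE, adjusted p = 6.2e-07).

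Of the cytokines that act upstream, Il1b was lower at 6 hours (-1.30 ± 0.26 (SE, adjusted p = 0.000334)) and day 14 (-2.68 ± 0.26 (SE, adjusted p = 3.92e-08)), and Tnf read 1.03 ± 0.49 (SE, adjusted p = 0.129) at 6 hours, which was not called. The adaptor Myd88 and the receptor Tnfrsf1a were higher at 24 hours, by 0.98 ± 0.21 and 1.17 ± 0.12 (adjusted p = 0.000605 and 1.21e-08). On the centred scale the NF-kB list had 13 genes higher and 1 lower at 6 hours, 10 and 1 at 24 hours, and 11 and 3 at day 14, with a median of 0.59 at day 14, so its day 14 direction depends on the scaling.

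Of 20 interferon signals and targets measured, 12 rose and 0 fell at 6 hours and again at 24 hours, and 4 rose and 2 fell at day 14. The median change was 0.52, 0.75 and 0.18. From 6 to 24 hours 11 of the 20 rose and 4 fell, when 13.7% of all genes rose and 10.1% fell. From 24 hours to day 14, 0 rose and 13 fell, when 15.2% of all genes rose and 21.7% fell. The antiviral gene Ifit1 rose by 2.37 ± 0.22 (SE, adjusted p = 5.52e-09) at 6 hours, 4.30 ± 0.22 (SE, adjusted p = 8.56e-14) at 24 hours and 2.03 ± 0.22 (SE, adjusted p = 2.75e-07) at day 14, and Ifit3 by 3.27 ± 0.22 (SE, adjusted p = 9.6e-12) at 24 hours. Irf1, a factor that activates Cxcl10, rose by 0.61 ± 0.16 (SE, adjusted p = 0.00375) at 6 hours, with overlapping arrays. Ifng, whose protein gave the CXCR3 ligands their name as interferon-gamma targets, was above background on 2 of 5 non-irradiated arrays and at most 1 of 5 in the irradiated groups, with no called change. Ifnb1 was called at 6 hours (1.96 ± 0.64 (SE, adjusted p = 0.0224)) but was above background on 0 of 5 and 2 of 5 arrays. Mx1 was lower at day 14 (-2.19 ± 0.63 (SE, adjusted p = 0.0141)). On the centred scale 15 of the 20 were higher and 0 lower at day 14, when 8210 of all 18193 genes were higher and 461 lower.

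Among 10 genes of chemokine mRNA decay and protein processing, 4 rose and 3 fell at 6 hours, 1 rose and 4 fell at 24 hours, and 2 rose and 2 fell at day 14, with median changes of 0.00, -0.16 and 0.14. Zfp36, or tristetraprolin, which binds AU-rich elements and speeds the decay of chemokine mRNAs, rose by 0.36 ± 0.061 (SE, adjusted p = 4.34e-05) at 6 hours and was lower at 24 hours (-0.41 ± 0.061 (SE, adjusted p = 8.13e-06)) and day 14 (-0.65 ± 0.061 (SE, adjusted p = 3.01e-08)). Zc3h12a, or regnase-1, an RNase that cleaves inflammatory mRNAs, rose by 1.44 ± 0.29 (SE, adjusted p = 0.000382) at 6 hours. Zfp36l2 rose at 6 hours (0.27 ± 0.075 (SE, adjusted p = 0.00667)) and was lower at day 14 (-0.45 ± 0.075 (SE, adjusted p = 0.000113)). The RNA-binding proteins Khsrp and Hnrnpd were lower at 24 hours (-0.50 ± 0.16 and -0.55 ± 0.12, adjusted p = 0.0182 and 0.00067). Adam17, a protease that sheds membrane proteins, was higher at 24 hours (0.56 ± 0.18 (SE, adjusted p = 0.0217)). With centred arrays all 10 genes of this list were higher at day 14, when 8210 of all 18193 genes were higher and 461 lower. On that scale 4 were higher and 0 lower at 6 hours (median 0.25), and 3 and 0 at 24 hours (median 0.22). None of the falls in this list was thus called with centred arrays. At 24 hours 4950 of all genes were higher and 1139 lower on that scale. Under quantile normalization 1 was higher and 4 were lower at 24 hours (median -0.12), so the 24-hour direction of this list depends on the scaling.

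In bulk RNA of this kind, fewer cells of a type and less RNA per cell cannot be told apart, and markers of several cell types moved together with the chemokines. The summed signal of 12 endothelial genes ran from 14911 to 16164 in non-irradiated mice, 38696 to 46044 at 6 hours, 21291 to 22726 at 24 hours and 7817 to 8749 at day 14, without overlap. Cdh5 itself read 3186 ± 494 (SD, n = 5), 8954 ± 1263, 4891 ± 188 and 1293 ± 270.1, and Pecam1, the endothelial adhesion molecule CD31, 1295 ± 228, 3542 ± 1004, 1697 ± 257 and 426 ± 64.8. As deposited, 11 of the 12 rose at 6 hours, 5 rose at 24 hours and 9 fell at day 14, with median changes of 1.46, 0.35 and -0.94. With centred arrays 12 rose at 6 hours and 9 at 24 hours, while 3 were higher and 4 lower at day 14 with a median of -0.04, so the day 14 fall of the list depends on the scaling. Cdh5 and Pecam1 were lower at day 14 on that scale too (-0.41 ± 0.12, adjusted p = 0.00713 and -0.70 ± 0.17, adjusted p = 0.00121). The pan-leukocyte list turned from 0 higher and 6 lower at day 14 to 7 higher and 0 lower. The sum of 10 monocyte and macrophage genes ran from 22031 to 24509.6, 17394 to 20336, 23333 to 24877 and 16981 to 19545, with 2 rising and 3 falling at 6 hours, 2 and 4 at 24 hours, and 0 and 2 at day 14. With centred arrays 3 of these genes rose and 2 fell at 6 hours, 2 and 1 at 24 hours, and 3 and 0 at day 14. Ptprc read 4785 ± 417, 2722 ± 476, 3811 ± 393 and 2726 ± 182. The sum of 10 pan-leukocyte genes ran from 48809.7 to 55802, 45654 to 53504, 48539.5 to 55064 and 38517 to 41535.

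The sum of 9 granulocyte genes ran from 113554 to 130379 in non-irradiated mice, 85263 to 105138 at 6 hours, 87791 to 111448 at 24 hours and 78259 to 99412 at day 14. Erythroid genes moved most: the sum of 9 ran from 44942 to 48352, 5197 to 9417, 2149.6 to 2875 and 54313 to 67805. The sums of 9 megakaryocyte and platelet genes ran from 12034 to 13206, 31733 to 40201, 17446 to 18236 and 9712 to 11002, and those of 9 stromal genes from 86955 to 98196, 104774 to 128561, 82488 to 103543 and 70201 to 84668. For 7 B lineage genes the sums ran from 4686 to 5193, 4166 to 6614, 3414 to 4011 and 3292 to 3859. For 9 T and NK cell genes the sums ran from 1442 to 1854, 2123 to 2650.3, 1673 to 2177 and 1669.9 to 2039. No gene of the endothelial, leukocyte, monocyte, granulocyte, platelet, stromal or B lineage lists was at background on all 5 arrays of a group, while Ncr1, Cd3g, Cd3e, Rhag or Hba-a1 was in at least 1 group. The part of these cell types in the chemokine changes was not tested.

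**Figure D4:**
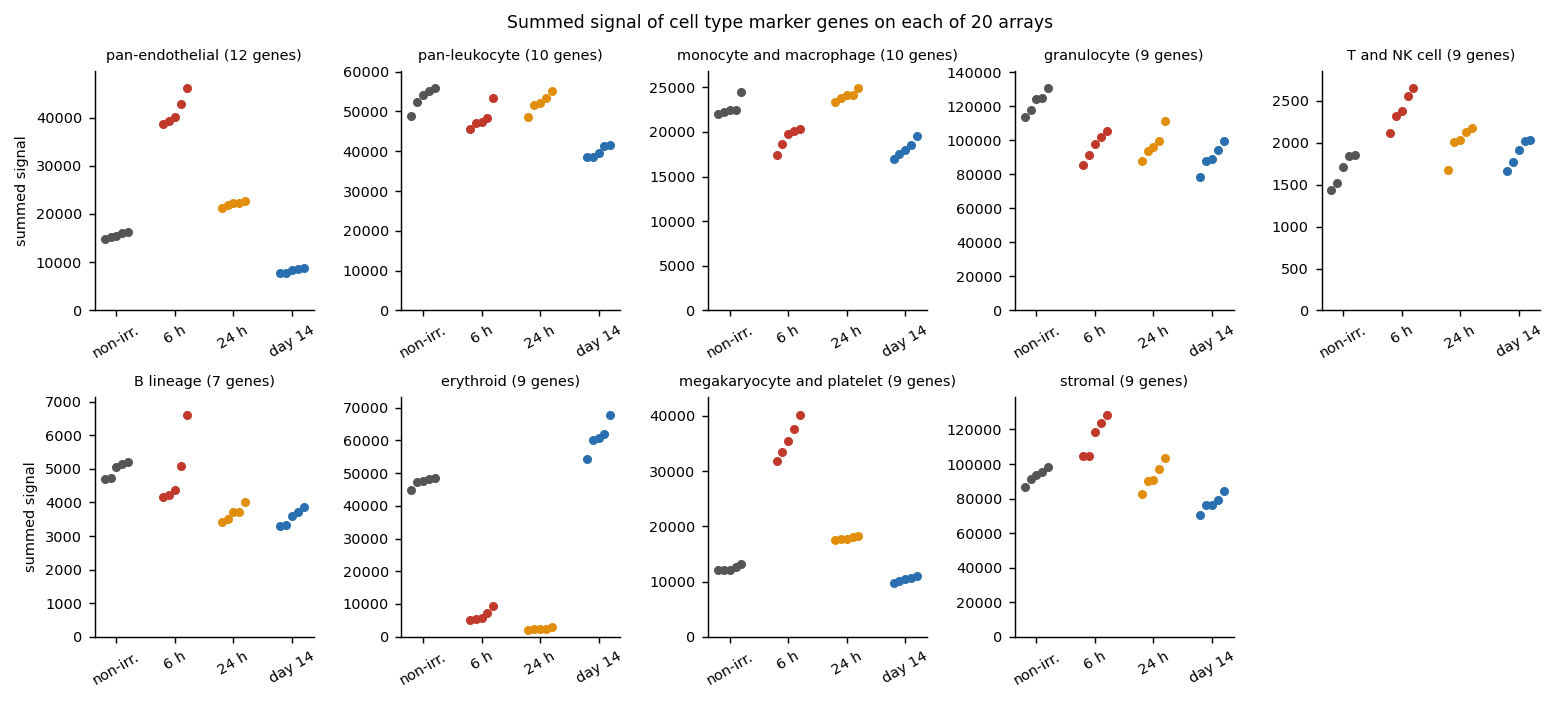
Summed signal, as deposited, of the marker genes of 9 cell types on each array, in 4 groups of 5 arrays, on linear axes that start at 0. Endothelial and platelet sums are highest at 6 hours and lowest at day 14, erythroid sums are lowest at 24 hours, and leukocyte and granulocyte sums differ by less than 2-fold between groups.

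Measures of the arrays themselves also differed between the groups. The mean log2 signal of the hybridization controls was 12.77 ± 0.084 (SD, n = 5) in non-irradiated mice, 12.84 ± 0.16 at 6 hours, 12.17 ± 0.16 at 24 hours and 12.14 ± 0.16 at day 14. The log2 signal at the 3' end of Gapdh minus that at the 5' end, a measure of RNA or amplification quality, was 1.33 ± 0.040, 1.58 ± 0.29, 0.77 ± 0.056 and 0.89 ± 0.12. Chemokine calls at 24 hours and day 14 coincide with the lower values, and the part of these measures in them was not tested.

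For each of the 9 chemokines that passed the F test, the nearest genes by pattern were sought among 14842 genes above background, as the smallest root mean square difference of centred log2 signals over the 20 arrays. This distance is not scaled to the size of a gene's own changes, so it does not rank the matches of different chemokines. The nearest to Ccl3 were Tnfaip3 (0.26) and Ms4a2 (0.28), an Fc receptor subunit of mast cells and basophils. The nearest to Cxcl9 were Iigp1 (0.30), an interferon-induced GTPase, and Apoe (0.35). For Cxcl1 they were Il6 (0.37) and the basophil protease gene Mcpt8 (0.41). For Cxcl10 they were Hmox1 (0.41), heme oxygenase, and Bst2 (0.45), an interferon-induced membrane protein. For Cxcl16 they were the coagulation factor gene F10 (0.30) and Amotl1 (0.32), and for Cxcl2 Plxna2 (0.43), a semaphorin receptor, and Gm11767 (0.43). The distances were larger for Ccl2, with Igkv6-15 (0.62) and Ubd (0.63), for Ccl4, with Muc13 (0.60) and Cblb (0.62), and for Ccl7, with Dusp23 (0.79) and Ccl2 (0.81). Ccl7 was the only one of the 9 with another of the 10 chemokines among its 2 nearest genes.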

How the data were processed

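The data are 20 Affymetrix arrays of amplified, biotin-labelled RNA, 4 groups of 5. Per the labels' protocols, the kits were Qiagen's RNeasy micro for extraction and the second version of NuGEN's Ovation system for amplification. The deposited table holds an intensity on a linear scale for each probe set and array, and the values show that the authors had scaled each array to a 2% trimmed mean of 500. Per the submitters' processing notes, the software was Affymetrix Expression Console and Transcriptome Analysis Console. How probes were summarized or filtered is not given in the sources used here, and precision is limited by the number of arrays.

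Of 45101 probe sets, 34945 carried 1 gene symbol, 932 several and 9160 none here, and 64 were controls. The brightest probe set stood for each of 18193 genes, with no filter on dim genes. Values were compared as log2(signal + 1) by limma 3.58.1 in R 4.3.3 (lmFit and eBayes, trend on) in 1 model of all 20 arrays, two-sided, with Benjamini-Hochberg adjustment over all genes. The model was tested on simulated data. Background was the 95th percentile of 27 probe sets for absent bacterial genes. Within-array ratios were tested by exact permutation with scipy 1.17.1 in Python 3.11.15, and figures were drawn with matplotlib 3.10.9. Upstream windows and neighbouring genes are RefSeq's (GRCm38.p6). Named genes were the 10 chemokines, the 2 called genes with the largest change from each context list at each time, Irf1, Nfkbia, Tnfaip3, Tnf, Il1b, Ifng, Cdkn1a, Cdh5, Pecam1 and Ptprc, and the 2 nearest genes by pattern.

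The members and lists were chosen with earlier results of these data known. The background level, the ratio tests and their alternatives, and the other scalings of the marker lists were chosen after seeing the data. Alternatives were quantile normalization, median centring, adding 16, dropping genes below the 40th percentile by mean signal, averaging the probe sets of a gene, dropping probe sets whose suffix marks possible cross-hybridization, the trend off, array weights, fits of 2 groups alone, a replicate block, a covariate (the Gapdh 3' minus 5' difference or the mean of the pan-leukocyte genes), an adjusted p under 0.01, a 2-fold minimum and leaving out each array. No column of the table was left out for want of a sample.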

Additional observations from a re-analysis of the deposited data

Results flagged for a closer look

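As deposited, each of Ccl3 and Ccl4 was called higher at 6 hours and lower at day 14. Both day 14 calls were lost with centred arrays (limma adjusted p = 0.249 and 0.527). That of Ccl4 was also lost under quantile normalization (adjusted p = 0.359) and without day 14 replicate 1 (adjusted p = 0.0577). Ccl3, which was called lower at 24 hours too, differed between 24 hours and 6 hours by -1.86 (limma adjusted p = 1.48e-11) and between day 14 and 6 hours by -2.09 (adjusted p = 1.43e-13). For Ccl4 the difference between day 14 and 6 hours was -3.36 (adjusted p = 1.35e-08). Cxcl2 was called higher at 24 hours and lower at day 14, a difference of -2.69 (adjusted p = 1.2e-11). The genes were flagged for their opposite calls against the same non-irradiated arrays. A difference between the 2 times follows from such calls, so these p-values add no support to them.

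Of 40 groups of 5 arrays (10 genes in 4 groups), 4 had an array far from the others, its gap taking more than 0.71 of the group's range. They were a high Ccl4 signal of 284 in 24-hour replicate 4, a high Ccl5 signal of 277 in day 14 replicate 1, a high Cxcl10 signal of 1803 in 6-hour replicate 4 and a high Cxcl10 signal of 1307 in day 14 replicate 5. Chance alone sets apart an array in about 1 in 20 groups. No call of Cxcl10 against non-irradiated mice was lost when any single array was left out.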

How the results depend on the processing

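The number of arrays and the spread of the dimmer genes (Ccl7, Ccl4, Ccl5 and Cxcl16) set the limits here. The calls of Ccl2, Cxcl9 and Cxcl10 against non-irradiated mice kept their direction in every setting, and those of Ccl2 and Cxcl9 also stayed past the threshold; Cxcl10 lost its 6-hour and day 14 calls with the pan-leukocyte covariate. Of 2360 single chemokine values under other settings (F tests included), 2258 kept their side of the threshold, 81 lost a call, 18 gained one and 3 turned round. The 2258 include 43 uncalled values that changed sign. Those that turned round were Cxcl9 from 24 hours to day 14 (0.48, adjusted p = 0.0102) and Cxcl10 from 6 hours to day 14 (0.59, adjusted p = 0.0183) with centred arrays, and Cxcl16 at 6 hours (-0.13, adjusted p = 0.961) with the pan-leukocyte covariate. Of 276 ratio values, 25 lost a call, 1 gained one and 0 turned round.

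Counts of the 10 genes moved by more than 1.5 times as follows; the cause was not tested. With the pan-leukocyte covariate, 5 were higher at 6 hours, 2 were higher and 0 lower at day 14, and from 6 to 24 hours 1 rose and 3 fell. With the Gapdh covariate, 3 were higher at 24 hours, 0 rose and 3 fell from 6 to 24 hours, and 0 rose from 6 hours to day 14. These covariates lie mostly between the groups (93.3% and 83.8% of their variance). Not every value shrank: with the pan-leukocyte covariate the 6-hour change of Ccl2 went from 3.90 ± 0.17 to 5.33 ± 0.37. With centred arrays 1 was lower at day 14, and 3 rose from 24 hours and 3 from 6 hours to day 14. Quantile normalization gave 0 rises from 24 hours to day 14, and array weights 4 falls. An adjusted p under 0.01 left 0 rises from 24 hours to day 14. The 2-fold minimum left 0 lower at 24 hours, 1 rise from 6 to 24 hours, and 0 rises from 24 hours or from 6 hours to day 14.

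Without 1 array at a time, the counts higher and lower ran from 7 to 8 and from 0 to 1 at 6 hours, from 4 to 5 and from 1 to 1 at 24 hours, and from 3 to 4 and from 2 to 3 at day 14. The 1 gene lower at 6 hours was Ccl5 without non-irradiated replicate 5. Replicate numbers did not pair the arrays: deviations of 30 same-numbered pairs correlated between -0.067 and 0.049, and 5 of 20 arrays correlated best with their own number. With the replicate block, 8 were higher and 0 lower at 6 hours, 5 and 1 at 24 hours, and 3 and 3 at day 14.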
